A study of Mus musculus with 2 samples.

Results

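The 269 sites described here are USF1 binding peaks that combine the canonical E-box with a promoter poor in CpG. They were taken from the deposited mm9 list of 10624 peaks. A peak qualified when its summit lay within 1 kb of the 5′ end of a protein-coding transcript (3082 peaks), when CACGTG lay within 50 bp of the summit (1748 of those), and when no pair of protein-coding genes started on opposite strands within 1 kb (1559 of those). Of these 1559 unidirectional promoter peaks, the 269 (17.3%) with a CpG observed over expected ratio below 0.45 within 500 bp of the summit form the CpG-poor set. They lie at the starts of 267 genes.

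USF1 was mapped by ChIP-seq, in which chromatin carrying the factor is pulled down with an antibody and its DNA is sequenced. The cells were CH12.LX, immortalized lymphoma cells of the B lineage whose mouse strain is B10.H-2aH-4bp/Wts. There were 2 biological replicates of 1 group, both pulled down with a USF1 antibody and with no treatment given in the labels, so the comparisons are between kinds of bound sites. The labels name possible control experiments, which were not used here, and all results describe 1 cell line. Expression was not measured in the files used here, and sequencing depth is unknown, so a marker gene can be checked only for a peak at its start.

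USF1 is a basic helix-loop-helix leucine zipper protein that binds DNA as a dimer, and its best known site is CACGTG. That palindrome holds a CpG at its centre, and methylation of this CpG lowers USF binding in the test tube. Promoters rich in CpG serve many widely used genes and are mostly unmethylated, while promoters poor in CpG are more often those of genes used in few cell types. The following kinds of sites serve for comparison: 1290 peaks with CACGTG at unidirectional CpG-rich promoters (ratio of 0.45 or more), 3563 CpG-poor peaks with CACGTG more than 1 kb from every protein-coding start (distal), and 230 CpG-poor unidirectional promoter peaks without CACGTG.

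The bound sequences below belong to strong members of the set, to B-cell, costimulation and autophagy genes in it, and to the member with the most E-boxes. They are from the mm9 genome, 5′ to 3′ on the strand of the gene, and capitals mark each CACGTG.
Dpp7, chr2:25211895-25211950, minus strand: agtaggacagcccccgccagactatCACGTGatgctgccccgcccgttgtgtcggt
Gabarap, chr11:69804497-69804552, plus strand: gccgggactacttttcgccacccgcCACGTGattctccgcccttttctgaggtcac
Cyba, chr8:124957107-124957162, minus strand: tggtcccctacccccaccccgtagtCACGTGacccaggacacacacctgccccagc
Runx1, chr16:92826360-92826415, minus strand: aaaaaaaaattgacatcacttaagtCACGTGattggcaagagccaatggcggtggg
C1qtnf6, chr15:78359176-78359231, minus strand: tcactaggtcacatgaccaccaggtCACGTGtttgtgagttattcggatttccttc
Trpv2, chr11:62390197-62390252, plus strand: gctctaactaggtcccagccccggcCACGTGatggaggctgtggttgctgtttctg
Tnfrsf9, chr4:150301328-150301383, plus strand: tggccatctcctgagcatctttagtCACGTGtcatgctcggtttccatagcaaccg
Gabarapl2, chr8:114463762-114463817, plus strand: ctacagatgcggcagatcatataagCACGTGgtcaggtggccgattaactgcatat
Tnfrsf13c, chr15:82053801-82053856, minus strand: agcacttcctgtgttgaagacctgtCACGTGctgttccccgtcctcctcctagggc
Sohlh1, chr2:25702940-25703014, minus strand: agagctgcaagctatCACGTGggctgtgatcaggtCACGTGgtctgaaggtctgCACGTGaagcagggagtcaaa

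In each of these windows the E-box is the shared element and the bases around it differ. Dpp7, Cyba and Runx1 carry the palindromic form TCACGTGA, while Gabarap and Trpv2 carry CCACGTGA. Dpp7, Gabarap and C1qtnf6 also have CACATG within 50 bp of the summit, the variant of the E-box without CpG. At Dpp7 and Gabarap it lies outside the bases printed here. Sohlh1, which encodes a germ cell helix-loop-helix factor, has 3 copies of CACGTG and a weak peak, with a signal of 30.5. For all 269 members the 46 bases centred on the bound copy occur once in the mm9 genome.

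Signal is the authors' value for each peak in the mm9 list, which pools both replicates and whose scale is not given. Positions are in bp from the nearest start, negative upstream. Dpp7, which encodes a vesicular dipeptidyl peptidase, had a signal of 3745 at position −17. In the separate mm10 lists of the replicates the Dpp7 site had a signal of 263 in replicate 1 and 276 in replicate 2. Those lists are on another scale than the mm9 list, so values are compared only within a build.

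Gabarap, a ubiquitin-like protein of autophagosome membranes, had an mm9 signal of 2256 at position −105. Its site had a signal of 254 in replicate 1 and 281 in replicate 2. Cyba encodes the p22phox subunit of the phagocyte NADPH oxidase and had 1852 at position −297, in an intron of another transcript. It had a signal of 297 in replicate 1, the highest replicate 1 value of any CpG-poor promoter site placed in mm10, and 279 in replicate 2. Runx1, a transcription factor of blood cell development, had an mm9 signal of 1851 at position −64. Its replicate signals were 261 in replicate 1 and 283 in replicate 2, the replicate 2 value being the highest there. For Dpp7, Gabarap, Cyba and Runx1 the replicates thus gave similar values.

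Tcn2, the blood protein that delivers vitamin B12 to cells, had an mm9 signal of 1702 at position −13. Selplg, the P-selectin ligand of leukocytes, had 1451, also at position −13. Pbxip1, which encodes a protein that binds PBX homeodomain factors, had 1015 at position −7. Only 8 of the 269 members exceeded a signal of 1000, Pbxip1 being the lowest of them. Irf9, the DNA-binding subunit of the interferon-stimulated ISGF3 complex, came next with 999.8 at position 128, downstream of the start. In replicate 1 the Irf9 site had a signal of 191 and in replicate 2 it had 249. Mpv17, an inner mitochondrial membrane protein needed to keep mitochondrial DNA, had 976 at position −3.

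The next 5 sites were at C1qtnf6, a secreted C1q- and TNF-related protein (878), Arhgap15, a GTPase-activating protein for Rac (842), Hmha1, a GTPase-activating protein of blood cells (785), Ms4a1, which encodes the B-cell surface protein CD20 (769), and Trpv2, a cation channel (769). C1qtnf6 and Trpv2 were bound downstream of the start, at positions 838 and 601, and the other 3 within 11 bp of it. Replicate 1 gave 169 at C1qtnf6, 172 at Arhgap15, 191 at Hmha1 and 166 at Trpv2. Replicate 2 gave 214 at C1qtnf6, 207 at Arhgap15, 202 at Hmha1 and 229 at Trpv2. All 4 were therefore higher in replicate 2 than in replicate 1. The weakest members were Nfkbid, Ppp1r13l and 1700025K23Rik, with mm9 signals of 29.2, 29.2 and 29.0, close to the lowest value in the list.

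Most CpG-poor promoter sites were far weaker than these and weaker than sites at CpG-rich promoters. The median signal was 84.9 at the members, with 25% and 75% quartiles of 46.6 and 157. It was 282 at CpG-rich promoters, 57.9 at CpG-poor distal sites and 57.6 at CpG-poor promoters without CACGTG. Of the members, 155 had a signal under 100 and 24 had over 500. A peak was called strong when it was among the top 20% of the list by signal, which by construction held 20% of all peaks. Strong peaks made up 57 of 269 members (21.2%, 95% Wilson interval 16.7 to 26.5) and 751 of 1290 peaks at CpG-rich promoters (58.2%, 55.5 to 60.9). The difference was −37.0 percentage points (interval −42.2 to −31.1; two-sided Fisher's exact test, Benjamini-Hochberg adjusted p = 3.49e-28).

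Against CpG-poor distal sites, where 498 of 3563 peaks were strong (13.98%), the members were more often strong by 7.21 points (2.60 to 12.6, adjusted p = 0.00426 by Fisher's exact test). That call was lost with a CpG limit of 0.35 (adjusted p = 0.0568) and among the upper 50% of peaks by signal (adjusted p = 0.384, both by Fisher's exact test). Against CpG-poor promoter peaks without CACGTG, of which 36 of 230 were strong (15.7%), the difference of 5.54 points did not pass the test (−1.36 to 12.2, adjusted p = 0.195, Fisher's exact test). It did pass with a CpG limit of 0.55, where it was 12.9 points, with CpG counted within 250 bp, where it was 10.1, and with the E-box within 25 bp of the summit, where it was 9.01. These and the other tests of shares treat peaks of 1 pooled list as units, so they do not measure the spread between cultures. The kinds of CpG-poor sites were not matched on CpG ratio. Its median was 0.312 at members, 0.242 at distal sites and 0.258 at promoter peaks without CACGTG. The part of this imbalance in the differences in strong share was not tested.

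**Figure D1:**
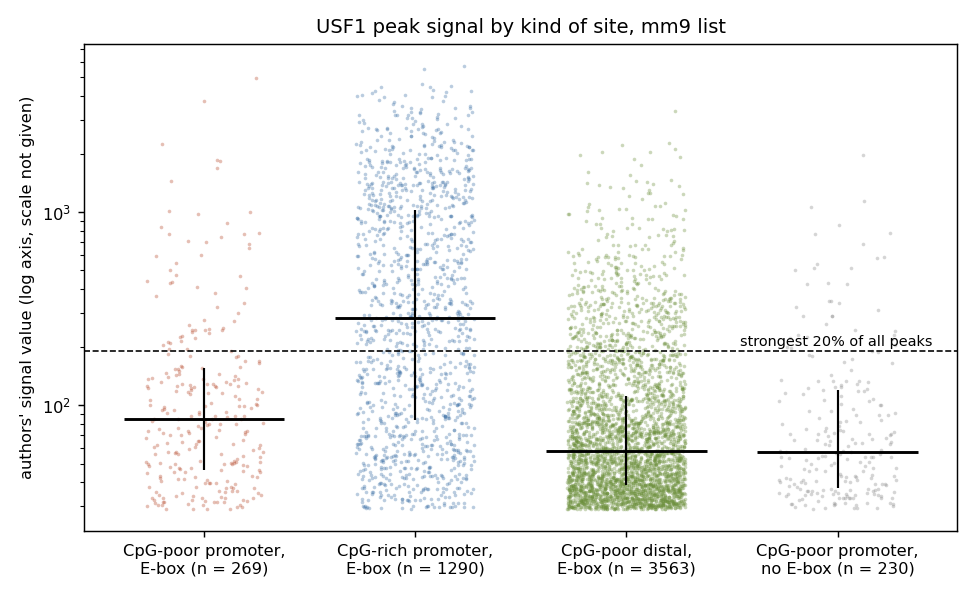
Each point is 1 peak of the mm9 list, the vertical axis is the authors' signal on a log scale, thick bars are medians and thin bars span the 25% and 75% quartiles. The CpG-poor promoter peaks with the E-box have a median of 84.9, against 282 at CpG-rich promoters, and the dashed line marks the lower bound of the strongest 20% of the list.

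The share of strong peaks was higher at higher CpG content among promoter and distal sites, a trend that was not itself tested. At unidirectional promoters with CACGTG it was 20.4% of 113 peaks at ratios of 0.15 to 0.3 and 22.8% of 145 peaks at 0.3 to 0.45. It was 49.8% of 217 peaks at 0.45 to 0.6 and 67.3% of 205 peaks at 0.9 and over. Only 11 members had a ratio under 0.15, and 1 of those was strong. At distal sites with CACGTG, 15.8% of 967 peaks were strong at ratios of 0.3 to 0.45 and 28.0% of 207 at 0.45 to 0.6. The members closest to the limit were at Tnfrsf8 (0.4492), Got1 (0.4494) and Prune2 (0.4498), with signals of 81.1, 54.4 and 129. The promoter peaks just above it were at Mettl2 (0.4505), Fkbp11 (0.4507) and Slc38a7 (0.4513), with signals of 34.3, 103 and 2595. Within 50 bp of the summit the CpG of the E-box was the only one in 50 members (18.6%), while 20 members had 6 or more.

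**Figure D2:**
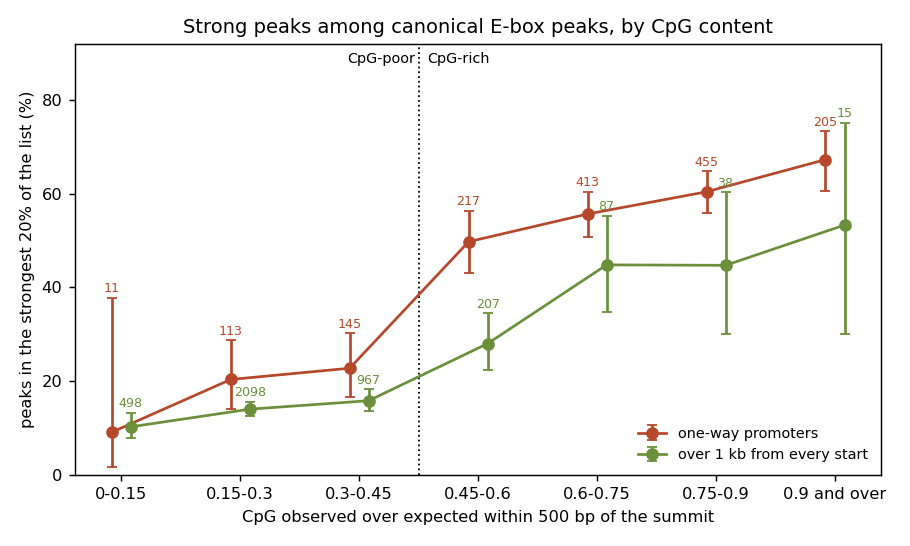
The percentage of canonical E-box peaks in the strongest 20% of the list is plotted against the CpG observed over expected ratio, for unidirectional promoters and for sites over 1 kb from every start, with 95% Wilson intervals and the number of peaks above each. The promoter share is 22.8% just below the dotted limit of 0.45 and 49.8% just above it.

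The members were spread over the promoter window, whereas sites at CpG-rich promoters gathered at the start. The summit lay within 200 bp of the nearest start in 83 of 269 members (30.9%, 25.6 to 36.6) and in 816 of 1290 CpG-rich promoter peaks (63.3%, 60.6 to 65.8). The difference was −32.4 points (−38.2 to −26.1, adjusted p = 2.24e-21 by Fisher's exact test). The CpG ratio was counted around the summit, not around the start. A summit far from a CpG-rich start can therefore count as CpG-poor, so the rule may partly set this difference. With starts limited to 500 bp, which shortens the range itself, the difference was −8.44 points (adjusted p = 0.0890, Fisher's exact test). The members also lay upstream of the start less often, 54.3% of the members and 66.9% of CpG-rich promoter peaks (adjusted p = 2.51e-04, Fisher's exact test).

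For more of the members the nearest start was an annotated one inside a gene. Whether such annotated starts are used in these cells was not measured. The share of inner starts among all CpG-poor annotated starts was not counted, so the difference is not read as a trait of the members. For 75 of 269 members (27.9%), and for 117 of 1290 CpG-rich promoter peaks (9.07%), the nearest start was over 1 kb downstream of the first annotated start of its gene (adjusted p = 2.97e-14, Fisher's exact test). Trpv2 was the only one of the 15 strongest members at such an inner start. Strong peaks were 12 of the 75 members at inner starts (16.0%) and 45 of the 194 at other starts (23.2%), a difference that was not tested. By the Gencode annotation of protein-coding transcripts 140 summits lay in introns, 97 outside transcripts, 23 in untranslated and 9 in coding exons. A TATA box was read as TATAAA starting 20 to 40 bp upstream of the start. It was found for 2 of 269 members (0.743%) and for 8 of 1290 CpG-rich promoter peaks (0.620%, adjusted p = 0.686, Fisher's exact test).

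**Figure D3:**
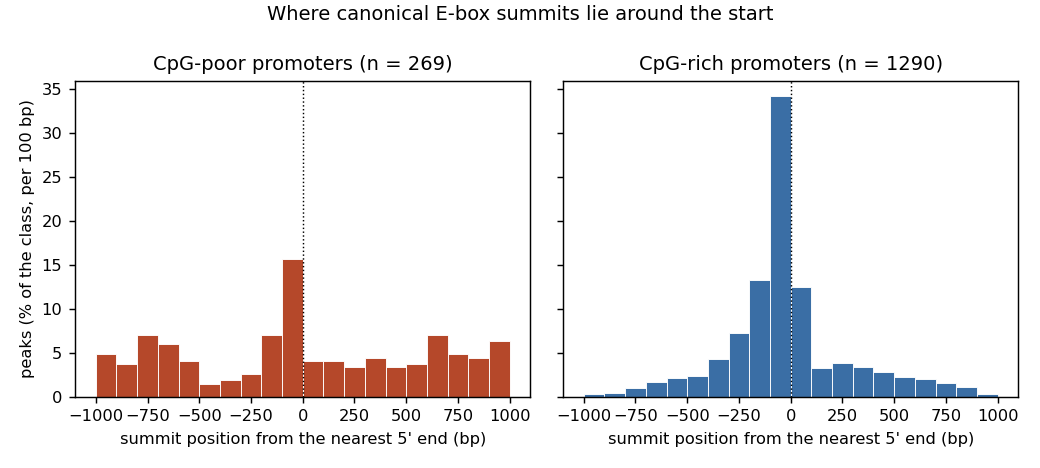
The percentage of peaks in each 100 bp bin is plotted against the summit's position from the nearest start, negative upstream, for members on the left and CpG-rich promoter peaks on the right. The 100 bp upstream of the start hold 15.6% of the members and 34.2% of the CpG-rich promoter peaks, and the bins beyond 500 bp hold more of the members.

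Within the set, strong signal went with nearness to the start and with an A after the core. The tests in this paragraph, in the paragraph on motif copies and of A after the core between kinds of sites form a family of 13 that was chosen after the data had been seen. Strong peaks were 27 of the 83 members within 200 bp of the start (32.5%) and 16.1% of the 186 at 200 to 1000 bp (adjusted p = 0.00451, Fisher's exact test). CpG-rich promoter peaks showed the same order, with 67.8% within 200 bp and 41.8% beyond (adjusted p = 4.54e-19, Fisher's exact test). The members were less often strong than CpG-rich promoter peaks within 200 bp, by 35.2 points, and at 200 to 1000 bp, by 25.6 points (adjusted p = 1.38e-09 and 3.89e-10, Fisher's exact test). Against distal sites (13.98% strong), members within 200 bp were higher by 18.6 points (9.37 to 29.3, adjusted p = 3.33e-05, Fisher's exact test). For members at 200 to 1000 bp the difference from distal sites was 2.15 points and did not pass (−2.59 to 8.21, adjusted p = 0.421, Fisher's exact test).

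The core was read on the strand that puts A after it where either strand does. Of the members, 177 (65.8%) had A after the core and 92 had another base. Strong peaks were 46 of the 177 (25.99%) and 11 of the 92 (11.96%), a difference of 14.03 points (3.93 to 22.7, adjusted p = 0.00886, Fisher's exact test). Both features together gave the highest share: 20 of 51 members (39.2%) with A after the core within 200 bp of the start were strong, and 4 of 60 members (6.67%) with neither were. Among the 15 strongest members, 14 had A after the core and 12 lay within 200 bp of the start. Among the 15 weakest, 8 had A after the core and 5 lay within 200 bp.

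The flanking bases of the bound core were compared with those of the other kinds of sites. TCACGTGA was the bound form in 57 of 269 members (21.2%), 17.8% of CpG-rich promoter peaks and 27.6% of distal sites. The difference from CpG-rich promoters, 3.44 points, did not pass (−1.53 to 9.07, adjusted p = 0.259, Fisher's exact test). The difference from distal sites, −6.43 points, did (adjusted p = 0.0376, Fisher's exact test), but it was lost with starts within 500 bp or the E-box within 25 bp and was 0.117 points among the upper 50% of peaks. CCACGTGA was the commonest form, in 67 members (24.9%), 27.1% of CpG-rich promoter peaks (adjusted p = 0.567, Fisher's exact test) and 28.5% of distal sites (adjusted p = 0.286, Fisher's exact test). Other forms were not tested. CCACGTGG was bound in 41 members (15.2%) and 10.6% of CpG-rich promoter peaks, ACACGTGA in 36 members (13.4%) and 8.22%, CCACGTGC in 25 members (9.29%) and 11.3%, and GCACGTGA in 17 members (6.32%) and 11.1%. Any form with A after the core was found in 65.8% of the members, 64.2% of CpG-rich promoter peaks (adjusted p = 0.625, Fisher's exact test) and 74.96% of distal sites (adjusted p = 0.00202, Fisher's exact test). The median signal was 119 for the members with TCACGTGA and 72.6 for those with CCACGTGA.

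Copies of the same motif with and without a summit were counted next. Of 262836 CACGTG copies on the chromosomes with peaks, 4867 lay within 1 kb of unidirectional starts in CpG-poor sequence and 4338 in CpG-rich sequence. A summit lay within 50 bp of 277 of the CpG-poor copies (5.69%, 5.07 to 6.38) and of 1406 of the CpG-rich copies (32.4%, 31.0 to 33.8). Over both kinds the share was 18.3%. The difference of −26.7 points (−28.3 to −25.2) passed the test (adjusted p = 3.67e-254, Fisher's exact test). At CpG-poor promoters TCACGTGA made up 57 of the 277 copies at a summit (20.6%) and 192 of the 4590 others (4.18%, adjusted p = 2.28e-20, Fisher's exact test). CCACGTGA made up 24.5% of the copies at a summit and 11.8% of the others (adjusted p = 3.95e-08, Fisher's exact test).

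By form, 22.9% of the 249 TCACGTGA copies at CpG-poor promoters lay at a summit, and 74.9% of the 347 at CpG-rich promoters. For CCACGTGA the shares were 11.1% of 610 and 53.4% of 701. The form ACACGTGC was least often at a summit, in 0.493% of 608 copies at CpG-poor promoters and 11.002% of 409 at CpG-rich promoters. Position had a like relation: 29.96% of the CpG-poor copies at a summit and 18.1% of the others lay within 200 bp of the start (adjusted p = 6.89e-06, Fisher's exact test). With A after the core and the start within 200 bp, 13.6% of 376 CpG-poor copies lay at a summit, and 65.4% of 943 CpG-rich copies. With neither, 2.53% of 2533 CpG-poor copies and 13.6% of 1711 CpG-rich copies did. DNA methylation, chromatin state and mappability were not analysed here, and their part in these shares was not tested.

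**Figure D4:**
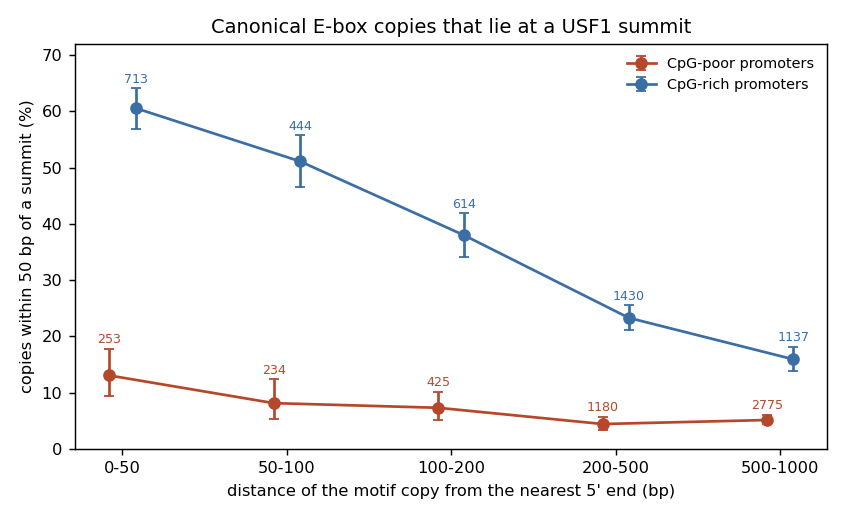
The percentage of CACGTG copies with a USF1 summit within 50 bp is plotted by the copy's distance from the nearest start, for CpG-poor and CpG-rich unidirectional promoters, with 95% Wilson intervals and the number of copies above each. It is 13.0% of CpG-poor copies and 60.6% of CpG-rich copies within 50 bp of the start, and 5.12% and 15.9% of them at 500 to 1000 bp.

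Members rarely had more than 1 canonical E-box, and some had the variant without CpG nearby. A window within 50 bp of the summit held 2 or more CACGTG copies in 4 members (1.49%), in 7.91% of CpG-rich promoter peaks and in 4.18% of distal sites (adjusted p = 0.0376, Fisher's exact test, a call lost in 5 alternatives). Each copy adds a CpG, so the rule that chose the members partly sets the gap to CpG-rich promoters, and nothing is read from it. CACATG lay in the same window in 30 members (11.2%), in 3.57% of CpG-rich promoter peaks (adjusted p = 7.62e-06, Fisher's exact test) and in 12.5% of distal sites (adjusted p = 0.673, Fisher's exact test). Windows of the same width away from the summit held CACATG in 6.32% of cases around the members, 3.14% around CpG-rich promoter peaks and 9.12% around distal sites. The base level was thus also higher in CpG-poor sequence.

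Another 11 motif strings were searched on both strands in the same windows, and each is given here with its share of windows of that length at all protein-coding starts. The CCAAT box was read as CCAATCA or as CCAATGA and lay in 3.19% of start windows. The ETS site was read as AGGAAGT (3.38%) and its PU.1 form, which overlaps it, as GAGGAAGT (1.15%). ATTTGCAT stood for the octamer of B-cell promoters (0.313%), TGACTCA for AP-1 (1.24%) and CCACCC for the CACCC box (11.7%). TGTGGT stood for RUNX (5.05%), AGATAA for GATA factors (2.45%) and CAGGTG for E2A (7.14%). The IRF string lay in 1.11% of start windows and the NF-kB string in 0.527%. A match is a description of the letters. The E2A string, an E-box of lymphoid helix-loop-helix factors, was in 30 members (11.2%) and 5.35% of CpG-rich promoter peaks (adjusted p = 0.00948, Fisher's exact test). It was in 13.2% of all 10624 peaks. In windows away from the summit it was in 8.92% around the members and 7.64% around CpG-rich promoter peaks. The call was lost with a CpG limit of 0.35, with CpG counted within 250 bp and with starts within 500 bp (adjusted p = 0.172, 0.151 and 0.284, Fisher's exact test).

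The other 10 strings did not pass against CpG-rich promoters at the limit of 0.45. RUNX was in 8.55% of members and 4.96% of CpG-rich promoter peaks, GATA in 2.60% and 0.853%, and IRF in 1.86% and 0.388%, each with an adjusted p of 0.0755 (Fisher's exact test). In windows away from the summit, RUNX was in 7.99% around the members and 5.19% around CpG-rich promoter peaks. GATA was in 2.60% and 3.80% of those windows, and IRF in 1.86% and 1.40%. With a CpG limit of 0.55, RUNX (4.32 points, adjusted p = 0.0239) and GATA (1.82 points, adjusted p = 0.0306) passed Fisher's exact test. Against distal sites 0 of the 11 strings passed, and 1 had an unadjusted p under 0.05, the CACCC box, in 13.4% of members and 8.53% of distal sites (p = 0.0102, adjusted p = 0.112, Fisher's exact test). The CACCC box difference passed in 4 alternatives, with a CpG limit of 0.35 or 0.55, starts within 500 bp, or divergent promoters kept.

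The members that could be placed in mm10 were looked up in each replicate's list. These lists hold background regions beside peaks, so presence in both says little about reproducibility. The mm10 promoter sequence in RefSeq (GRCm38.p6) placed the start of 184 members (68.4%) without conversion of coordinates. Of these, 175 (95.1%) had a summit within 100 bp of the same offset in each replicate's list, 8 had it in replicate 2 alone and 1 in neither. Signal at the 175 ran to 297 in replicate 1, with a median of 35.8, and to 283 in replicate 2, with a median of 36.3. On the log2 scale, replicate 2 over replicate 1 had a median of 0.15 (SD 0.54 across members). It differed by more than 2-fold at 14 members, 10 of them higher in replicate 2. The placement by sequence was added after the data had been seen and also gives the replicate values of single genes. Matched by gene as planned, 205 of 262 matched genes had a region within 1 kb of an mm10 start in each replicate. Their median on the same log2 scale was 0.12 (SD 0.46 across genes). At CpG-rich promoters 1054 of 1074 placed sites (98.1%) were in both lists, and the median by sequence was 0.16 (SD 0.38).

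**Figure D5:**
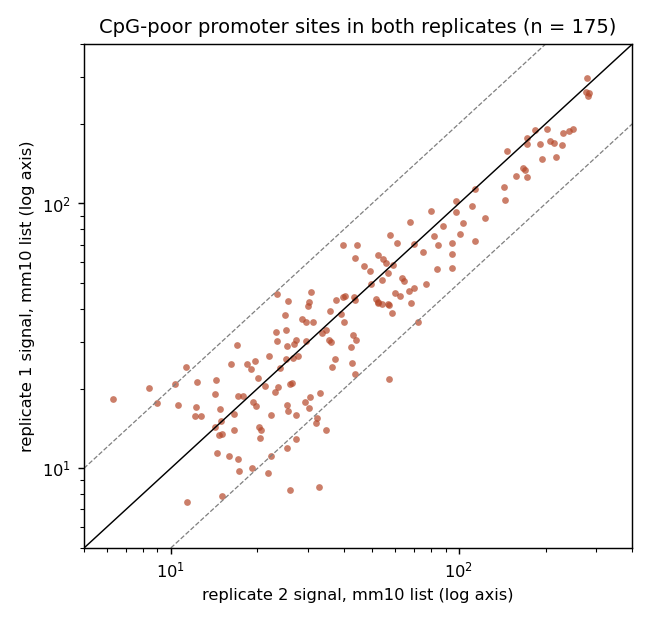
Each point is 1 of the 175 CpG-poor promoter sites found in both replicates, with the authors' mm10 signal in replicate 2 on the horizontal and in replicate 1 on the vertical axis, both on log scales. The solid line marks equal values and the dashed lines a 2-fold difference, which 14 sites exceed.

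Fewer members than CpG-rich promoter sites entered the optimal list, which the authors thresholded by IDR (irreproducible discovery rate, a comparison of ranks between lists). Matched by gene, an optimal summit lay within 1 kb of an mm10 start for 168 of 264 members (63.6%, 57.7 to 69.2). The same held for 1132 of 1278 CpG-rich promoter peaks (88.6%, 86.7 to 90.2, adjusted p = 1.68e-19, Fisher's exact test). The share over all promoter peaks of the mm9 list was 77.7%. The difference of −24.9 points was −10.4 points (81.0% of members and 91.3% of CpG-rich promoter peaks, adjusted p = 1.67e-04, Fisher's exact test) where the start was placed by sequence. With gene matches limited to 500 bp of an mm10 start the difference was −38.0 points (adjusted p = 6.14e-33, Fisher's exact test). The shares were then 43.6% of members and 81.5% of CpG-rich promoter peaks. A gene match looks at the RefSeq starts of the gene, which need not include the start nearest the member, and 27.9% of the members lie at inner starts. It also counts an optimal summit near any of those RefSeq starts that belongs to another site than the member.

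The genes of the set were read against 22 lists, and 25 list genes carried a member. The base rate was 1.2% of 22219 protein-coding genes for a CpG-poor canonical E-box peak and 5.67% for a CpG-rich one. The lists were chosen with earlier results of these data known, so their counts are descriptions and no test was made. Of 32 genes for B-cell markers and signalling, 4 had a member and 0 a CpG-rich peak of the same kind. They were Ms4a1 (signal 769), Tnfrsf13c, the BAFF receptor (224), Fcrl1, an Fc receptor-like protein of B cells (161), and Cd22, an inhibitory co-receptor (116). Ms4a1 and Cd22 were bound within 71 bp of the start, Tnfrsf13c and Fcrl1 at positions 940 and 725. In replicate 1 the signal was 75.2 at Tnfrsf13c, 75.9 at Fcrl1 and 42.0 at Cd22. In replicate 2 it was 81.8 at Tnfrsf13c, 57.7 at Fcrl1 and 52.3 at Cd22. Fcrl1 was thus lower in replicate 2 and the other 2 higher.

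Of 20 B-cell transcription factors, 2 had a member: Bach2, a repressor of plasma cell differentiation (137), and Irf4, a regulator of that step (46.6). Both summits lay downstream of the nearest start, at position 390 from an inner start of Bach2 and at position 693 at Irf4. A CpG-rich canonical peak lay at starts of 2 genes of that list. Of 28 adhesion and motility genes, 3 had a member, Selplg (1451), Icam2, an endothelial and leukocyte adhesion protein (403), and Itgb2, the shared chain of the leukocyte integrins (34.2), and 0 had a CpG-rich peak. Of 34 interferon response genes, 2 had one, Irf9 (999.8) and Irf7, the master factor of type I interferon induction (137), and 0 a CpG-rich peak. Irf7 had a signal of 35.8 in replicate 1 and 71.9 in replicate 2. Ciita, the regulator of MHC class II genes, had a signal of 79.8 and was the only one of 22 antigen presentation genes in the set. Tnfrsf9, the costimulatory receptor 4-1BB, had 324, and was the only one of 44 cytokine and receptor genes. Its replicate signals were 98.1 in replicate 1 and 111 in replicate 2. Cd180, a Toll-like receptor relative of B cells, had 61.3 and was the only one of 27 innate sensing genes.

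Genes of the lysosome and the clock, in which E-box factors are well known, carried both kinds of canonical peak, as did all genes together, with 267 genes at a member and 1259 at a CpG-rich peak. Of 40 lysosome genes, 2 had a member, among them Ctsa, the protease cathepsin A (64.0), and 11 had a CpG-rich canonical peak. The vacuolar ATPase had 0 of 17 with a member and 7 with a CpG-rich peak. Of 26 autophagy genes, 2 had a member, Gabarap (2256) and its relative Gabarapl2 (244), and 6 a CpG-rich peak. Gabarapl2 gave 76.6 in replicate 1 and 101 in replicate 2. Of 20 circadian clock genes, 3 had a member and 7 a CpG-rich peak. Among the 3 were Tef, a PAR-domain leucine zipper factor with clock output (474), and Per1, a repressor of the clock loop (51.8). The member site at Tef gave 134 in replicate 1 and 169 in replicate 2, while that at Per1 gave 12.9 in replicate 1 and 27.2 in replicate 2. Stronger regions lay within 1 kb of an mm10 start of the same genes. The strongest had 172 in replicate 1 and 181 in replicate 2 at Per1, and 183 and 225 at Tef. At Ctsa it had 262 in replicate 1 and 279 in replicate 2, against 15.5 and 32.3 at the member site. Of 25 described USF targets, 1 had a member, Pigr, the receptor that carries polymeric immunoglobulin across epithelia (123), and 6 a CpG-rich peak.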

How the data were processed

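USF1 ChIP-seq peak lists from 2 biological replicates of CH12.LX cells were used as deposited. Per the deposited readme files, the mm9 list was derived from both replicates' alignments, each replicate has a relaxed mm10 list, and the optimal and conservative mm10 lists were thresholded by IDR. For the aligner, peak caller and thresholds the status is: not given in the sources used here. Signal is column 7 of the deposited lists, with no stated scale. Column 9 of the deposited mm9 list is −log10 q, and in the deposited mm10 lists it was read as a score; both only break ties. Read depth is unknown.

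The summit was the start plus column 10. Sequence came from the NCBIM37 (mm9) genome and starts from every protein-coding transcript of Gencode vM1. A motif copy counted as CpG-poor by the ratio within 500 bp of itself. Windows away from the summit have the same width as summit windows. Coordinates are 1-based and none was converted between builds. The members and gene lists were chosen with earlier results of these data known. Named genes are those of the 15 strongest members, the 3 weakest, the 3 on each side of the CpG limit, the 2 with the most copies and every member in a gene list. Some of these are not reported here. Shares of peaks were compared with two-sided Fisher's exact tests, adjusted by Benjamini-Hochberg within families of 16 shares, 11 strings per comparison and 13 added shares, at a threshold of 0.05. Shares have 95% Wilson intervals and differences Newcombe intervals, which cover counting error only. The functions that sort peaks and test shares were tested on simulated data. Python 3.11.15, numpy 2.4.6, pandas 2.3.3, scipy 1.17.1, statsmodels 0.14.6 and matplotlib 3.10.9 were used. Alternatives changed 1 choice each: CpG limits of 0.35 and 0.55, CpG within 250 bp, starts within 500 bp, E-box within 25 bp, the upper 50% of peaks, divergent promoters kept, the conservative list, each replicate left out and, added after the data were seen, starts placed by sequence.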

Additional observations from a re-analysis of the deposited data

How the results depend on the processing

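The number of members was 175 with a CpG limit of 0.35, 136 with starts within 500 bp and 165 among the upper 50% of peaks, against 269. Of 117 recomputed tests of the 16 shares, 98 kept their direction and side of the threshold. Some alternatives leave a smaller number of peaks and others a larger one, and the cause of the changes was not tested. The deficit of strong peaks against CpG-rich promoters held in all 7 alternatives, from −38.0 to −30.1 points. The difference in strong share from distal sites was 5.94 points at a limit of 0.35 and 4.22 points in the upper 50%, neither past the threshold. The difference from promoters without CACGTG passed at 12.9 points (limit 0.55), 10.1 (250 bp CpG window) and 9.01 (E-box within 25 bp). TCACGTGA against distal sites lost its call at −6.29 points (starts within 500 bp) and −5.19 (25 bp) and was 0.117 in the upper 50%. CCACGTGA against CpG-rich promoters turned to 0.721 (250 bp) and 0.520 (500 bp), and against distal sites it passed at −9.61 in the upper 50%. More than 1 copy against distal sites lost its call at −2.00 (limit 0.35), −0.411 (0.55), −1.32 (250 bp), −2.71 (500 bp) and −2.02 (25 bp). Summits within 200 bp of the start lost the call at −8.44 with starts within 500 bp, which shortens the range. The TATA difference turned to −0.187 (limit 0.55) and −0.382 (upper 50%).

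Strings that passed against CpG-rich promoters numbered 0 (limit 0.35, 250 bp, 500 bp) or 3 (limit 0.55), against 1, and against distal sites 1 (limits 0.35 and 0.55, 500 bp, divergent promoters kept), against 0. Single strings that turned, none past the threshold, were PU.1 against CpG-rich promoters at −0.194 (limit 0.55) and −0.0851 points (25 bp), AP-1 at −0.672 (500 bp) and −0.381 (upper 50%), and the CACCC box at −0.426 (25 bp). Against distal sites these were the CCAAT box at −0.0535 (250 bp), ETS at 0.217 and the octamer at 0.0550 (upper 50%), E2A at −0.645 (limit 0.55), −1.40 (250 bp) and −0.433 (500 bp), and IRF at −0.0198 (limit 0.55). The optimal-list difference was −26.3 to −24.6 points with either replicate left out, where the strongest regions of the other replicate, as many as in the optimal list, stood in. Starts within 500 bp left 16 list genes with a member, against 25. The planned share of E-boxes in repeats was not run, because the genome used here does not mark repeats.

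No paired analysis was possible because the series has 1 group. Read depth is unknown, so a copy without a summit is a copy outside the lists' thresholds, not one shown to be unbound. The single pooled mm9 list gives no spread between replicates for its signal.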

Other observations

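Some members lay at genes listed as markers of other cell types, where 1.2% of all protein-coding genes had a member. A place on such a list does not show that CH12.LX cells lack the gene, since expression was not measured. Of 32 T- and NK-cell genes, 1 had a member, Cd2, an adhesion protein (signal 128 at position −36). Of 31 myeloid and mast cell genes, 1 had a member, Tyrobp, the signalling adaptor DAP12 (100.1), and of 18 neuron genes, 1 had a member, Gad1, the enzyme that makes GABA (99.5). All 3 signals were above the median of 84.9 over the members. The lists for liver (20 genes), testis and germ cells (24), skin and keratins (18), muscle (17) and GIMAP GTPases (8) had 0 members, as did cell cycle (26) and the cytosolic ribosome (26). Genes named Zfp, a large family of zinc finger proteins, had 6 members among 340 (1.76%).

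The GC box GGGCGG, which contains a CpG and was therefore counted but not tested, lay within 50 bp of the summit in 11.5% of members, 37.4% of CpG-rich promoter peaks and 3.14% of distal sites. In windows away from the summit it lay in 5.58% of cases around the members and 12.8% around CpG-rich promoter peaks. The summit share exceeded the share away from it for both kinds of promoter, a difference that was not tested.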
